A study of Oryctolagus cuniculus with 18 samples.

Results

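Early morulae were compared with 4-cell embryos of the rabbit (Oryctolagus cuniculus) on nylon cDNA arrays of 2052 clones. The samples were chosen by their stage label: 3 pools of 4-cell embryos collected 32 h post coitum and 3 pools of early morulae collected 58 h post coitum, each hybridised on 2 arrays, so 6 of the 9 pools and 12 of the 18 arrays of the series. The sample titles state development in vivo for every pool except 4-cell pool 3, whose title does not mention it. The labels give no treatment, strain or genotype for either stage. The 4-cell pools held 53 embryos of 3 females (pool 1), 52 embryos of 4 females (pool 2) and an unstated number of embryos of 2 females (pool 3), and the morula pools held 34, 35 and 32 embryos, each of 2 females. One array of a pool received antisense RNA made by in vitro transcription (aRNA) and the other received PCR product, both labelled with 33P. The series' blastocyst pools were left out of the normalization and of the fit.

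The first cleavages of a mammalian embryo run on transcripts and proteins stored in the oocyte. These maternal transcripts are cleared while transcription from the embryo's own genome begins, and in the rabbit the major wave of this genome activation falls between the 4-cell stage and the morula. At the morula stage the blastomeres flatten against each other and the outer cells start to form an epithelium. The array files do not give a gene for any clone and 0 clone names occur in the RefSeq gene table of the species, so gene lists and stage markers could not be looked at, and clones are given by ID. A level below is a log2 intensity after background correction and normalization within each amplification, averaged over the 2 arrays of a pool, and a change is the morula mean minus the 4-cell mean. Levels are relative to the other clones of an array. In pools of whole embryos, fewer cells that hold a transcript and less of it per cell cannot be told apart.

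Signal differed between the stages before any normalization. The median raw clone intensity ran from 29 to 122 over the 6 arrays of 4-cell embryos and from 68 to 350 over the 6 morula arrays. The spots with the name prefix XWAB, whose role the sources used here do not give, had median intensities of 24 to 74 and of 49 to 192. The 95th percentile of the XWAB spots of an array served as its detection level (called the XWAB level). Between 10.1% and 14.7% of clone spots lay above it on 4-cell arrays and between 13.0% and 25.2% on morula arrays. The titles carry an array code (4, 5 or 6) whose meaning is not stated, and each code holds 1 pool of each stage. Within each code and amplification the share was higher on the morula array, by the least in code 5 aRNA arrays (11.9% against 13.2%) and by the most in code 4 aRNA arrays (14.5% against 25.2%). The SD of the log2 clone intensities was 0.64 to 1.33 on 4-cell and 0.95 to 1.59 on morula arrays. The 10 brightest clones held 14.3% to 26.3% of the raw clone signal of a 4-cell array and 9.9% to 15.9% of that of a morula array, while the 100 brightest held 36.0% to 56.3% and 36.2% to 55.7%, ranges that coincide.

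Pools of a stage resembled each other more than pools of different stages. Across clones, which are not independent, pools correlated at r of 0.82 to 0.88 among 4-cell embryos, 0.88 to 0.97 among morulae and 0.64 to 0.76 between the stages. The first principal component held 59.5% of the variance and separated the stages, with scores of -17.7 to -13.4 for the 4-cell and 15.9 to 16.3 for the morula pools. Along the second component, with 17.4% of the variance, both pools of array code 4 lay at one end (13.3 and 10.0, against -11.3 to -2.57 for the others). Normalized levels varied more among the 4-cell pools: the median SD of a clone over 3 pools was 0.28 at the 4-cell stage and 0.21 in morulae, and it was the larger at the 4-cell stage in 60.9% of clones. Normalization gave the arrays of both stages the same distribution, and the part of the lower raw signal of 4-cell arrays was not tested. Morula pools 1 and 3 were the closest (r of 0.97), and pool 2 correlated with them at 0.89 and 0.88. Among the 100 brightest clones of a pool, 72 to 80 were shared by pairs of 4-cell pools, 80 to 83 by pairs of morula pools and 43 to 53 by pairs of 1 pool from each stage.

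The main question of the contrast is which transcripts differ in relative level between the stages. By limma with Benjamini-Hochberg adjustment over all 2052 clones (called at an adjusted p under 0.05), 344 clones (16.8%) changed: 201 (9.8%) were higher and 143 (6.97%) lower in morulae. The median size of a change was 1.31 on the log2 scale among rises and 1.22 among falls. It exceeded 2-fold in 149 rises and 105 falls and 4-fold in 30 rises and 14 falls. The 95% confidence interval lay wholly beyond 2-fold for 56 rises and 37 falls. Risen clones had a median level of 7.05 in 4-cell embryos and 8.43 in morulae, and fallen clones one of 8.58 and 7.17, against 6.82 and 6.83 over all clones. For 1189 clones (57.9%) the confidence interval lay within 2-fold on both sides, and 112 clones had an adjusted p from 0.05 to 0.1. The median SE was 0.24, which sets the size of difference that 3 pools a stage can show.

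**Figure D1:**
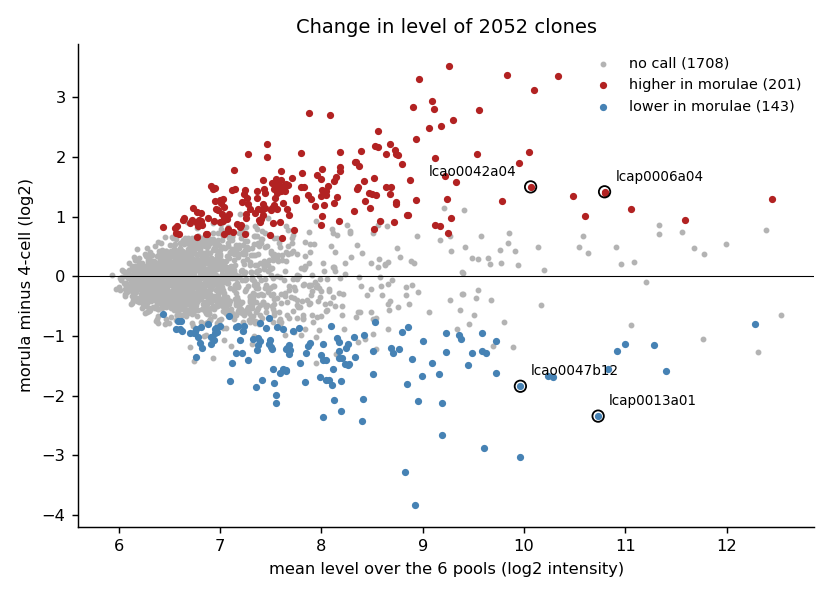
Change from the 4-cell stage to the morula (morula minus 4-cell, log2) against the mean level over the 6 pools (log2 intensity) for 2052 clones, 1 point per clone. The 201 clones called higher (red) and 143 called lower (blue) lie mostly at the brighter levels, and the 4 ringed clones are those described by name.

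Calls were few among dim clones. With clones ranked by mean level and cut into 4 groups of 513, 0.39% of the dimmest group were called, against 6.24%, 15.0% and 45.4% in the next groups. In the brightest group 134 clones rose and 99 fell. Without regard to the test, all morula pools lay beyond all 4-cell pools in 375 clones with higher (18.3%) and 380 with lower (18.5%) morula levels.

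The direction of the calls depended on how arrays were scaled. With each array centred on its median, which leaves the wider intensity range of the morula arrays in place, 154 clones rose and 33 fell, so 82.4% of calls were rises against 58.4%. With cyclic loess 153 rose and 183 fell (45.5% rises). Of the 187 calls under median centring 172 were also calls of the reported fit, all in the same direction, and 4 of the 344 reported calls had the opposite sign there. None of the 344 changed sign under loess, where 290 of 336 calls were shared. The median change over all clones, which such scaling holds near 0, was -0.04, -0.09 and -0.01 under quantile, median and loess scaling. Among the 67 clones above the XWAB level on all 12 arrays it was -0.10, 0.69 and -0.46, so whether these bright clones as a group stood higher or lower in morulae was set by the scaling.

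**Figure D2:**
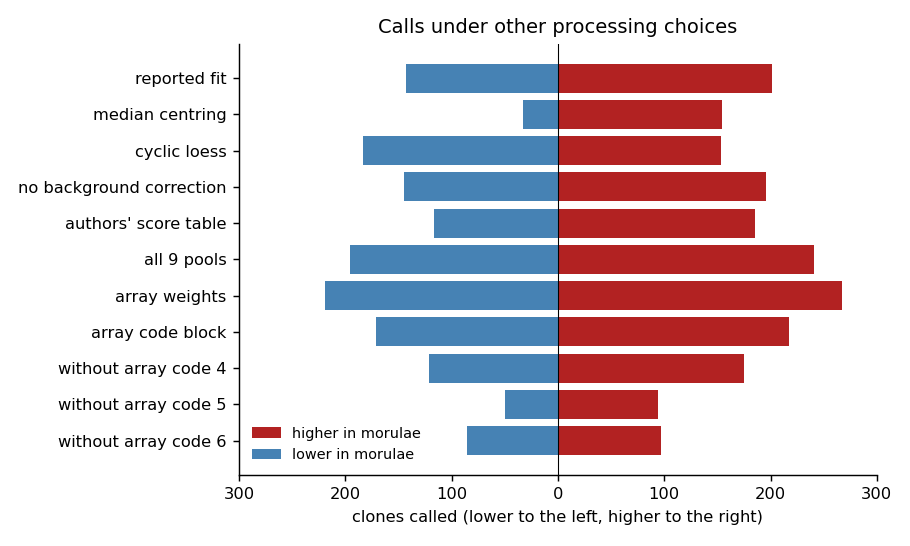
Numbers of clones called higher (red, to the right) and lower (blue, to the left) in morulae in the reported fit and under 10 other choices. Median centring leaves 33 falls beside 154 rises, and without the code 5 pools 94 rises and 50 falls are called.

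Clones that went from below to above the XWAB level, or the reverse, were found in raw intensities. This still sets each array against its own XWAB spots, whose role is not known. The median log2 intensity of XWAB spots minus that of clone spots was -0.72 to -0.26 on 4-cell and -0.94 to -0.33 on morula arrays. Of all clones, 93 lay above the XWAB level on all 6 arrays of the 4-cell stage and 172 on all 6 of the morula stage. On none of the 6 arrays of a stage lay 73.2% and 64.9% above it. A group of 27 clones was above the level on every morula array and on no 4-cell array. All 27 were called as rises, with changes of 0.80 to 2.71 (median 1.67). Since the 4-cell signal is then only a bound, the folds were set against the lowest normalized level above the XWAB level on each array. They came to at least 1.13-fold to at least 2.97-fold higher in morulae (median 1.70). The median change was 1.67, 2.32 and 1.30 under quantile, median and loess scaling, and the bounds hold for quantile scaling only. Of these clones 16 have the name prefix lcap and 11 the prefix lcao, and 3 had a spot next to them of 4 or more times their intensity. The choice of these clones fixes their direction in the same intensities, so their calls are a description, as are the 25 calls with median centring and 23 with loess.

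The reverse pattern was seen in 4 clones, above the level on every 4-cell and on no morula array. They are named here after their values were seen. The levels of lcao0043e06 were 10.88, 10.77 and 10.87 in 4-cell pools 1, 2 and 3 and 7.15, 6.70 and 7.19 in the morula pools. Its raw signal on aRNA arrays was 547, 2405 and 1163 in the 4-cell pools and 387, 88 and 200 in the morula pools. In each array code the morula value was the lower, before any scaling. The change was -3.83 ± 0.21 (SE, limma adjusted p = 2.26e-05), and under quantile scaling the level was at least 7.66-fold lower in morulae. The others were lcao0045f05 (change -1.82, at least 2.16-fold lower), lcao0048d05 (-1.69, at least 1.91-fold lower, beside a spot of 4.15 times its intensity) and lcap0011a10 (-1.10, at least 1.77-fold lower), with adjusted p of 0.00456, 0.00113 and 0.00924 by limma. Before scaling, these others were not lower in every array code. Their raw aRNA signal was lower in morulae in codes 4 and 5 but higher in code 6 (492 against 213, 452 against 184 and 942 against 179). On PCR arrays it was higher in morulae in every code for lcap0011a10, in code 4 alone for lcao0045f05 and in code 5 alone for lcao0048d05. The spread among 4-cell pools was largest for lcao0045f05, at 8.37, 9.09 and 9.58, all still above its morula levels of 7.38, 7.47 and 6.74. Their direction, too, is fixed by the choice, and 1 of the 4 was called with median centring. The median change of the 4 clones was -1.76, -1.22 and -1.98 under quantile, median and loess scaling, and their bounds hold for quantile scaling only. At the 90th percentile of the XWAB spots 7 clones met this rule, and at the 99th only 1 did.

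**Figure D3:**
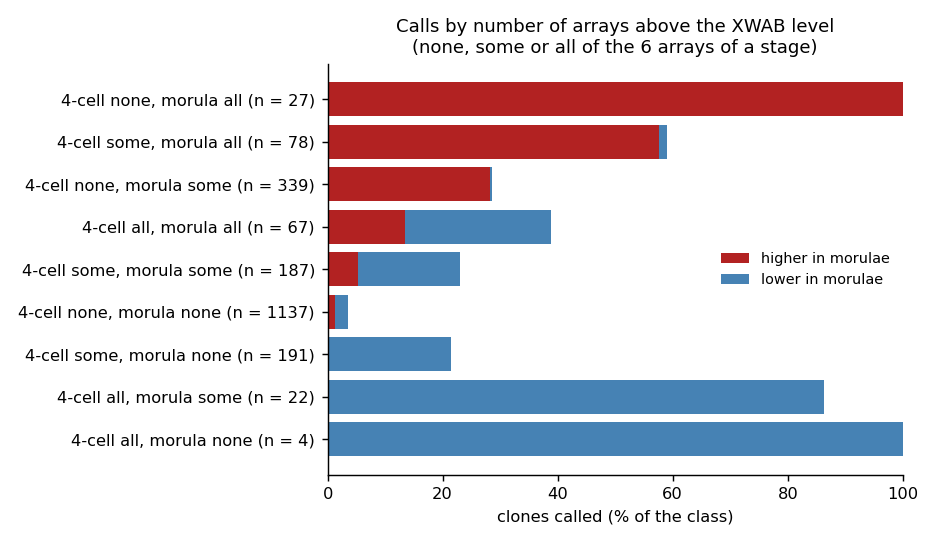
Share of clones called higher (red) or lower (blue) in morulae, in percent of each class, for classes set by whether a clone was above the XWAB level on none, some or all of the 6 arrays of each stage. The classes use the intensities that the calls use, so the plot is a description: all 27 clones of the first class rose and all 4 of the last fell, while 41 of the 1137 clones above the level on no array were called.

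The clones measured well at both stages show changes whose size is not a bound. Of the 67 clones above the XWAB level on all 12 arrays, 9 rose and 17 fell, against 5 and 0 with median centring and 6 and 28 with loess. The 2 with the largest rise and the 2 with the largest fall, among those without a spot next to them of 4 or more times their intensity, were taken by rule. They were picked for their size, which is therefore a description.

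Clone lcap0013a01 was among the brightest of the 4-cell stage, ranking 11, 8 and 8 of all clones in pools 1, 2 and 3, and ranked 67, 61 and 159 in the morula pools. Its levels were 11.70, 12.13 and 11.87 in 4-cell embryos and 9.89, 9.89 and 8.89 in morulae. The stages did not overlap, and morula pool 3 was the lowest. It fell by 2.34 ± 0.29 (SE, log2), which is 5.07-fold (95% confidence interval of the change -3.00 to -1.68, limma adjusted p = 0.000944). The aRNA arrays gave a change of -2.66 and the PCR arrays one of -2.02, and it was -1.81, -3.24 and -1.97 within array codes 4, 5 and 6. Before scaling, the signal of lcap0013a01 was lower in morulae in codes 4 and 5. In code 6 it was higher (5216 against 4624 on aRNA and 2250 against 1745 on PCR arrays).

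Clone lcao0047b12 stood at 10.68, 10.97 and 11.00 in the 4-cell pools and at 8.79, 9.44 and 8.90 in the morula pools. After scaling, no morula pool came near the 4-cell range. The change was -1.84 ± 0.23 (SE), or 3.58-fold lower (-2.36 to -1.32, adjusted p = 0.000944). It was -2.07 on aRNA and -1.61 on PCR arrays, and ran from -2.21 to -1.25 over the array codes.

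Clone lcap0006a04 rose, from 10.39, 9.80 and 10.06 to 11.48, 11.60 and 11.43. The morula pools lay close together, above all 4-cell pools. The change was 1.42 ± 0.21 (SE), or 2.67-fold higher (0.93 to 1.90, adjusted p = 0.00204), with 1.65 on aRNA and 1.18 on PCR arrays. Clone lcao0042a04 rose from 8.62, 9.74 and 9.58 to 10.80, 10.79 and 10.86, so the 4-cell pools were spread (SD 0.60) and the morula pools were not (SD 0.04). Its change was 1.50 ± 0.29 (SE), or 2.83-fold higher (0.85 to 2.15, adjusted p = 0.00682). It reached 2.17 in array code 4 and 1.12 and 1.22 in codes 5 and 6, and it was 2.08 on aRNA but 0.92 on PCR arrays, where it was not called (adjusted p = 0.345).

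With median centring these 4 changes became -1.57 (adjusted p = 0.12) for lcap0013a01, -0.95 (adjusted p = 0.233) for lcao0047b12, 2.29 (adjusted p = 0.0182) for lcap0006a04 and 2.37 (adjusted p = 0.0507) for lcao0042a04, so only lcap0006a04 was then called by limma. In the authors' score table, whose log base is unknown, lcap0006a04 changed by 0.83 and was not called (adjusted p = 0.0608), and the other three were.

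**Figure D4:**
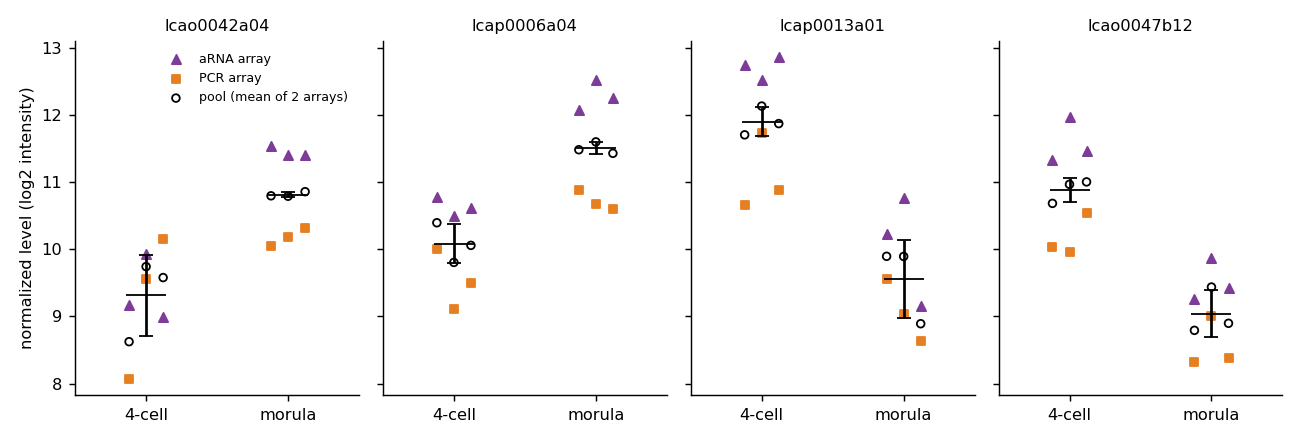
Normalized level (log2 intensity) of the 4 named clones on each aRNA array (triangles) and PCR array (squares), with the mean of the 2 arrays of a pool (open circles) and the mean ± SD of the 3 pools of a stage (black bars). The pools of the stages do not overlap in any of the 4 clones, and among the 4-cell pool means those of lcao0042a04 are the most spread (SD 0.60).

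The brightest clones of the stages overlapped in part. Spot intensities of different clones do not measure the relative abundance of their transcripts, so ranks here order spots only. Of the 100 clones with the highest mean level in 4-cell embryos, 54 were also among the 100 highest in morulae. Of these 54, 8 rose and 9 fell by limma. Among the 46 that left the list 35 were called as falls, and among the 46 that entered it 40 were called as rises, which the choice of the lists favours.

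The amplifications are separate measurements of the same pools. On aRNA arrays alone 174 clones rose (8.48%) and 105 fell (5.12%), and on PCR arrays alone 83 rose (4.04%) and 64 fell (3.12%). Both called 70 rises and 39 falls, and 0 clones in opposite directions. Of the clones called as rises on aRNA arrays 97.1% had the same sign on PCR arrays, as had 94.3% of the falls, against 71.7% of all clones. The changes were smaller on PCR arrays for these clones, with median sizes of 1.67 and 1.09 for the rises and 1.50 and 1.05 for the falls, in the order aRNA and PCR. Selection on the aRNA value favours the first of each pair. Clones called on PCR arrays, where selection favours the PCR value, had medians of 1.77 on aRNA and 1.59 on PCR arrays for the rises and of 1.44 and 1.53 for the falls. Among the 344 clones called from the pool means the change was larger on aRNA arrays in 245, and changes over all clones had an SD of 0.83 with aRNA and of 0.69 with PCR product. A test of the difference between the changes (PCR minus aRNA within pools, limma) called 0 of 2052 clones, with 128 at an unadjusted p under 0.05, a lowest adjusted p of 0.212 and a median SE of 0.41. A count of 0 at this SE does not show that the amplifications act alike. On PCR arrays alone median centring left 2 calls, both rises.

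**Figure D5:**
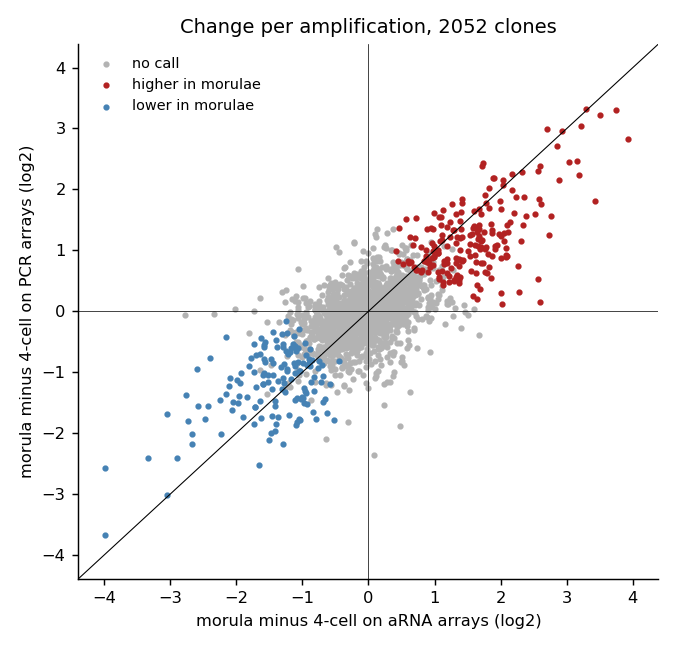
Change from the 4-cell stage to the morula on PCR arrays against that on aRNA arrays (both log2), 1 point per clone, coloured by the call of the pool means, with the line of equal change. Clones called higher or lower lie in the corners where both amplifications have the same sign, which a call on the mean of both axes favours. Across all 2052 clones r was 0.75.

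Over all clones, the 2 arrays of a pool shared little of what set the pool apart from others of its stage. Of these clones 1137 lay above the XWAB level on no array, and the brighter clones were not looked at alone. Deviations from the stage mean, taken across clones, correlated between the aRNA and the PCR array of a pool at r of 0.06 to 0.14 in 4-cell pools and 0.13 to 0.33 in morula pools, and between arrays of different pools of a stage at -0.09 to -0.02 and -0.29 to 0.13. A fit on the 12 arrays with the pool as a random block estimated a correlation of 0.0996 within a pool and called 392 clones. Per the labels, RNA was extracted from batches of embryos, so a pool stands for its own batch.

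Most called changes kept their sign across array codes, which have no pool in common. Calls made from the pools of 2 codes were looked at in the pair of pools of the third, a comparison added after the data were seen. All pools had been normalized together, so the third pair had a part in the levels that gave the calls. The morula arrays also had the higher median raw intensity in every code. The part of scaling in the shared signs was not tested. Without code 4, 175 clones were called as rises and 121 as falls, and 97.1% and 91.7% of them had the same sign in the code 4 pair, against 68.7% of all clones. The shares were 98.9% of 94 rises and 100% of 50 falls in code 5, against 70.4% of all clones, and 97.9% of 97 rises and 96.5% of 86 falls in code 6, against 71.2%. Median changes in the pair left out of the fit were 1.24, 1.51 and 1.88 for the rises and -1.18, -1.74 and -1.25 for the falls, in codes 4, 5 and 6. With the code as a block 388 clones changed (217 up, 171 down). A single clone cannot be tested within a code, which holds 1 pool a stage.

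Clones fall into name prefixes that the sources do not explain, mainly lcao and lcap with 1017 clones each. This grouping was taken up because earlier results of these data showed a difference between them. Among lcap clones 128 rose (12.6%) and 54 fell (5.31%), with a median change of 0.09, and among lcao clones 72 rose (7.08%) and 87 fell (8.55%), with a median change of -0.15. The median lcap level minus the median lcao level was -0.06, -0.09 and -0.08 in 4-cell pools 1, 2 and 3 and 0.30, 0.12 and 0.24 in the morula pools, so the sign turned between the stages and morula pool 2, of code 4, had the smallest difference of its stage. Of the 25 lcap plates with at least 20 clones, 18 had more rises than falls and 2 more falls. Of the 29 such lcao plates, 8 had more rises and 16 more falls. Rises outnumbered falls among lcap clones under all 3 scalings (101 and 9 with median centring, 94 and 65 with loess), while among lcao clones median centring gave more rises than falls (53 and 24). In the 22 lcap clones above the XWAB level on all 12 arrays 2 rose and 9 fell under the reported scaling. These falls depend on the scaling, since with median centring 0 of all 67 such clones were called as falls.

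Neighbouring and repeated spots give 2 measures of technical error. The 1112 clones next to a spot of 4 or more times their intensity held 39 rises and 49 falls, and the other 940 held 162 rises and 94 falls. Where the brightest such neighbour was itself a clone, 59 of 87 called clones (67.8%) changed in its direction, against 63.7% of all 991 such clones, and the part of signal spread in these calls was not tested. The 16 clones with 2 to 5 spots showed spot-to-spot SDs of the change from 0.09 to 1.17 (median 0.45), larger than the median SE between pools. In 11 of these 16 the spots disagreed in sign, and 0 of them was called. The other 2036 clones have 1 spot, so the spot-to-spot SD of called clones is not known. The spot of lcao0049f12 reached the highest intensity of the 12 arrays, the same value on 2 morula PCR arrays, so the spot may be saturated there. Its measured rise of 1.30 (from 11.79 to 13.09, adjusted p = 0.0224, limma) would then be a lower bound.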

How the data were processed

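The deposited array tables hold 1 linear spot intensity per row, which per the file headers the authors read with AGScan using 1 fixed diameter, without a background column. Each has 2304 spots, of which 2087 carry 2052 clones. A deposited quality column (other values, 0 or 1) was only tabulated. The authors' deposited score table, of unstated log base, served as an alternative and has 0 columns of other samples.

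Intensities were corrected with limma's normexp (offset 50) over all spots, log2 transformed and quantile normalized within each amplification over the 6 arrays of both stages. Spots of a clone and then the 2 arrays of a pool were averaged, and the 6 pool means were fitted with lmFit and eBayes (R 4.3.3, limma 3.58.1). The fit was also run on simulated data that lack the difference in intensity range between the stages. That run does not bear on the directions called here. Quantile normalization gives all arrays 1 distribution, so changes are relative. The number of arrays limits the precision.

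Named clones were the largest 2 rises and 2 falls among called clones whose sign was shared by both amplifications, above the XWAB level on all 12 arrays and without a neighbour at 4 times their intensity. The contrast, lists and rules were chosen with earlier results of these data known. Alternatives covered scaling, background, filters, blocks, weights, the blastocyst pools and left-out pools. Deviations of same-numbered pools did not share a sign (given with the alternatives).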

Additional observations from a re-analysis of the deposited data

How the results depend on the processing

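Recalculation left 83 of 109 counts within 1.5 times their reported value, and of 92 recalculated values of the named clones 88 kept their call, 4 lost it and 0 changed sign. The counts include the test of a difference between amplifications, which stayed at 0. Apart from array weights, settings that changed only filters, blocks or the variance model left a clone's estimate as it was, so its sign could not change there. Array weights moved the estimates, that of lcao0047b12 from -1.84 to -2.05. Median centring called 187 clones with 33 falls, and array weights gave 219 falls. Testing only the 198 clones above the XWAB level on all 6 arrays of a stage called 143 (93 up, 50 down). This tests fewer clones and lets clones in through the stage where they are high, so the count is a description. Without array code 5, 144 clones were called (94 up, 50 down), and without code 6 183 (97 up, 86 down), each with fewer pools. Leaving out 1 pool at a time gave 217 to 305 calls (125 to 191 up, 92 to 141 down), the lowest without morula pool 1. On aRNA arrays alone these fits gave 149 to 310 calls, the lowest without morula pool 1, and on PCR arrays alone 41 to 112, the lowest without morula pool 3. PCR arrays alone gave 2 calls with median centring (442 at an unadjusted p under 0.05), 94 with a normexp offset of 10 and 89 with the replicate block. With the replicate block the pool means gave 310 calls, but deviations of same-numbered pools correlated at -0.13, -0.06 and 0.20, so the numbers were not taken as pairs. Those of pools that share an array code correlated at 0.24, 0.04 and 0.09 in codes 4, 5 and 6, and the reported fit has no term for the code. Clones above the XWAB level on all 4-cell and no morula array numbered 7 at the 90th and 1 at the 99th percentile. Where no reason is given here, the cause was not tested. The test of a difference between amplifications called 0 clones under every alternative run. Clones near the XWAB level are limited by signal over background, and an exact permutation test of 3 pools against 3 cannot go below p = 0.1.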
